A study of Mus musculus with 16 samples.

Results

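Mitosis and cytokinesis genes were followed across all 16 arrays of a study that set mouse macrophages lacking Bhlhe40 beside unaltered ones; Bhlhe40 encodes a repressor of transcription of the helix-loop-helix family. The members were taken by name: 56 listed symbols for mitotic kinases and cyclins, the spindle checkpoint, anaphase onset, the chromosomal passenger complex, kinesins, kinetochore, condensin and chromosome proteins, and cytokinesis factors. Of these, 55 had a probe set that named 1 gene, out of 19938 genes measured in this way, and all 55 passed the filter on dim signal that kept 11634 genes. Ccnb1, the gene of cyclin B1, had no such probe set and was not analysed here.

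Expression was measured on one-colour Affymetrix mouse gene arrays in macrophages sorted from male C57BL/6 mice, of unstated age. Large peritoneal macrophages (LPM) make up most of the macrophages that live in the peritoneal cavity. One set of LPM came from mice given IL-4c on days 0 and 2 and killed on day 4. This set comprised 2 arrays of Bhlhe40-/- mice (KO), 2 arrays labelled Bhlhe40LysM, and 2 arrays of Bhlhe40+/+ mice (WT). LPM from untreated mice, called naive, gave 3 KO and 3 WT arrays. Alveolar macrophages (AM), which live in the airspaces, were sorted from digested lung of untreated mice and gave 2 KO and 2 WT arrays. KO mice lack Bhlhe40 in every cell, whereas Bhlhe40LysM mice carry a floxed Bhlhe40 gene and LysM-Cre, which is driven from the lysozyme M locus in myeloid cells. No AM or naive LPM array came from Bhlhe40LysM mice, and no array from a Cre-negative floxed or a Cre-only control, so the WT arrays are the reference. Whether each array stands for 1 mouse or a pool is not in the labels. The p-values therefore cover only the spread between these arrays, and the small number of arrays limits the precision.

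A cell that divides builds a spindle, attaches each chromosome to it through a kinetochore, holds anaphase until all are attached, separates the sister chromatids and then cuts itself apart. The genes for this work are transcribed late in the cell cycle and are silent or low in resting cells, so their transcripts are widely read as a mark of cells in division. Interleukin 4, here given as the complex IL-4c, is known to drive resident peritoneal macrophages to divide in place. In RNA from a sorted population, fewer dividing cells and less RNA of these genes in each cell cannot be told apart.

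Many genes of this kind are held off in resting cells by the DREAM complex, which contacts a promoter element called the cell cycle genes homology region (CHR), and are switched on by the MuvB core with B-Myb and FoxM1 through the same element. NF-Y, which binds CCAAT boxes, acts at many of the same promoters. Because the members moved together in the results below, their promoters are described first, from 250 bases before to 50 bases after the transcription start (RefSeq, GRCm38.p6). Promoters were given for 47 of the 55 members. The CHR letters TTTGAA were found on either strand in 34 of the 47 (72.3%), against 14.2% of 9352 tested genes. CCAAT, on either strand, was also found in 34 of the 47 (72.3%), against 42.3% of tested genes, and 28 of the 47 (59.6%) held both, against 5.62%. The letters CACGTG, the E-box that Bhlhe40 is known to bind and the same on both strands, were found in 3 of the 47 (6.38%), in Anln, Espl1 and Ttk, against 11.7% of tested genes. The first 4 sequences below show members that hold both motifs. Among them are 3 genes called lower than in IL-4c WT below, Kif4 and Ect2 in KO and Ccnb2 in LysM. The last 2 show a member whose signal moved with these (Ncaph) and one whose signal did not (Pttg1), neither with a match. Each runs from 130 bases before the start through its first 25 transcribed bases, 5′ to 3′ on the gene's own strand, with CHR and CCAAT matches of either orientation in capitals; for Ect2 it is the first of 2 listed starts.
Cdc20, chr4:118437319-118437473, minus strand: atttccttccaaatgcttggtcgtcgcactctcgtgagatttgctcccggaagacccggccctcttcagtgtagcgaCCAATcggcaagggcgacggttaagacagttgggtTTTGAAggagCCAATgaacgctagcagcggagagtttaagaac
Ccnb2, chr9:70421530-70421684, minus strand: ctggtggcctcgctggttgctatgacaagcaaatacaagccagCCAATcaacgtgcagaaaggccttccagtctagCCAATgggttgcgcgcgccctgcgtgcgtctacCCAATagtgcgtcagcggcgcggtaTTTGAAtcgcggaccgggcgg
Kif4, chrX:100625935-100626089, plus strand: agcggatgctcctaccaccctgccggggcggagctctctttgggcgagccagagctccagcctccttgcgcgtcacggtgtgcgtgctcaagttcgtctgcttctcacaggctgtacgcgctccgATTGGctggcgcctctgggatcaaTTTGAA
Ect2, chr3:27153854-27154008, minus strand: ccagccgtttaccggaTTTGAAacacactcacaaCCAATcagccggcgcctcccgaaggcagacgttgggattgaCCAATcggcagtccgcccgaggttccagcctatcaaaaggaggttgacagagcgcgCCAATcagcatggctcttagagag
Ncaph, chr2:127133930-127134084, minus strand: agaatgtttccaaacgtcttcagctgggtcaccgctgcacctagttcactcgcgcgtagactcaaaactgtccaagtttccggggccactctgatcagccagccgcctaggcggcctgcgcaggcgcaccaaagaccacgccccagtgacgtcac
Pttg1, chr11:43425957-43426111, minus strand: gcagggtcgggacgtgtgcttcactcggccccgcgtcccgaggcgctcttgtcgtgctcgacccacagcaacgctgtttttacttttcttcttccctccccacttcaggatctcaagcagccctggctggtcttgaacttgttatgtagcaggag
A match is a description of letters in a window, and its absence says only that these letters are not there.

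The label of each group was checked first. Bhlhe40 read 8.01 and 7.90 on the log2 scale in KO LPM after IL-4c, against 8.77 and 8.99 in WT, and it was also lower in KO naive LPM and KO AM. The arrays labelled Bhlhe40LysM read 8.75 and 8.83, so they were not lowered. The position of the probes against the deletion was not known here, and each direction given for these arrays rests on their label. They are called LysM from here on. Of 11 LPM markers, all 11 were above the array median on each LPM array, and of 11 AM markers, all 11 on each AM array. Between naive LPM and AM, in each genotype, 10 LPM markers were called higher in LPM and 1, Cd9, lower. Of the AM markers 9 were called lower in LPM and 1, Fabp4, higher. On LPM arrays 4 to 6 AM markers also exceeded the array median. The mean signal of B, T and NK, mast cell, neutrophil, eosinophil, stromal and small peritoneal macrophage, monocyte and dendritic cell marker lists was between 3.41 and 5.13, near or below the array medians of 4.79 to 4.93. Some single genes of these lists were brighter. In AM, Cd2 read 10.97 to 11.21, Krt19 10.07 to 10.38 and Siglecf, also an AM marker, 8.9 to 9.15. S100a8 read 5.9 to 7.88 over all arrays. In LPM, Irf4 read 5.13 to 6.91 and Cd209a 4.75 to 7.83.

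A pair of arrays stood apart from their group in these genes, and results that rest on them are given with and without them. The mean log2 signal of the 55 members was 6.28 on LysM replicate 1 and 7.0 on LysM replicate 2. Of the 55 members, 53 were higher on LysM replicate 2, with a median difference of 0.73, while 52.0% of all tested genes were higher on it, with a median of 0.01. In naive KO LPM the members averaged 5.32, 5.37 and 6.01. Replicate 3 exceeded both other KO arrays in 50 of the 55, by a median of 0.59, where 41.8% of all tested genes did so. The B cell markers moved the other way, with a mean of 5.0, 4.91 and 4.34 on naive KO replicates 1, 2 and 3, against 4.57 to 4.62 in naive WT LPM. The part of these markers in the members' values was not tested. In IL-4c WT LPM, replicate 2 was higher than replicate 1 in 47 of the 55 members, by a median of 0.24, where 57.0% of all tested genes were higher, by a median of 0.04. Members that shift together between arrays in this way are not independent observations. Counts of members on the same side in the comparisons below are therefore not counts of replicates. In the remaining groups the means were 6.92 and 6.93 in IL-4c KO LPM, 5.62 to 5.66 in naive WT LPM, 5.96 and 6.00 in KO AM, and 6.01 and 6.02 in WT AM; in IL-4c WT LPM they were 7.46 and 7.72.

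**Figure D1:**
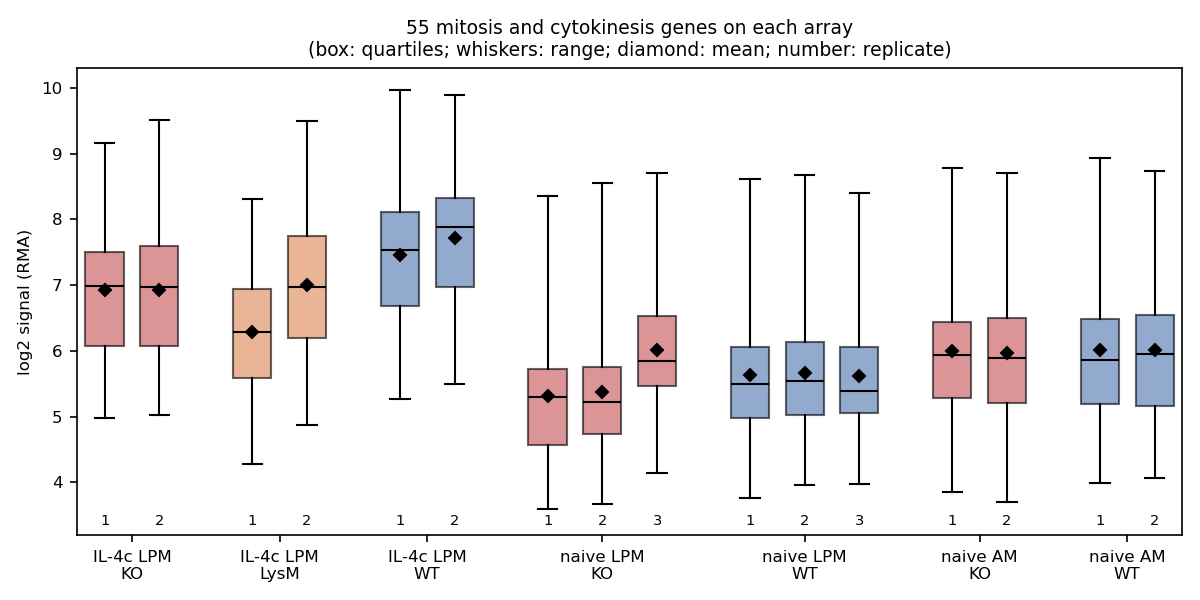
Log2 signal (vertical axis) of the 55 members on each of the 16 arrays, by group along the horizontal axis; boxes give quartiles, whiskers the range and diamonds the mean. IL-4c WT LPM are highest at means of 7.46 and 7.72, LysM replicate 1 lies at 6.28, and naive KO LPM replicate 3 lies at 6.01, above the other naive LPM arrays.

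The first question was which of these genes IL-4c moves in LPM. In WT LPM, 53 of the 55 members rose, Pttg1 fell, and Smc4 did not pass the test; the median difference was 2.05 on the log2 scale, against 0.02 over all tested genes. Of all tested genes 41.2% were called in this comparison, 22.0% higher and 19.2% lower. In KO LPM, 51 of the 55 rose and Pttg1 again fell, with a median of 1.43, against 0.04 over all tested genes; 37.3% of tested genes were called, 21.9% higher and 15.4% lower. Without naive KO replicate 3 the KO response had 51 members higher and a median of 1.66, and without any other single array of its groups 46 to 49 were higher. The B cell markers moved with IL-4c as well. Of the 5 tested, 4 were lower in KO (median -1.05) and 3 in WT (median -1.32), and the mean of all 7 was 3.94 to 4.07 in IL-4c KO, 3.88 to 3.99 in IL-4c WT, 4.34 to 5.0 in naive KO and 4.57 to 4.62 in naive WT. The part of these markers in the response was not tested. Of the 55 members, 6 were above the array median on no naive LPM array (Melk, Cdc25c, Kif4, Kif18a, Cenpn and Ncapg2), and for 3 of these, Cdc25c, Kif18a and Cenpn, the IL-4c arrays alone were above it. Those 3 passed the filter through the group where they were high, so their calls follow from the filter and are not support. Ttk was above the median on 7 arrays, those of the IL-4c set and naive KO replicate 3, so the same holds for it. These genes stay in the counts of members and of roles given here and below, where their rises are not support. The naive level of Melk, Cdc25c, Kif4, Kif18a, Cenpn and Ncapg2 is too dim for an exact difference.

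The mitotic kinases and cyclins had a median rise of 1.49 in KO and 2.47 in WT. Plk1, the polo-like kinase that acts from mitotic entry to cytokinesis (chromosome 7, 122159435 to 122169884, GRCm38.p6), read 7.39 and 7.22 in IL-4c KO LPM, 6.57 and 7.33 in IL-4c LysM LPM, and 7.82 and 8.23 in IL-4c WT LPM. In naive LPM it read 4.72, 4.99 and 5.45 in KO, against 5.53, 5.13 and 5.19 in WT. Every IL-4c array of Plk1 lay above every naive array, and within IL-4c both KO arrays and both LysM arrays lay below both WT arrays. Its rise was 2.25 ± 0.23 in KO (SE, 4.76-fold, limma adjusted p = 3.7e-06) and 2.74 ± 0.23 in WT (6.68-fold, limma adjusted p = 3.2e-07). Cdk1, the kinase that starts mitosis (chromosome 10, 69335146 to 69352912), read 7.94 and 8.01 in IL-4c KO, 7.46 and 7.94 in IL-4c LysM, and 8.27 and 8.89 in IL-4c WT, with 5.74, 5.49 and 6.48 in naive KO and 5.86, 5.93 and 5.94 in naive WT. Cdk1 thus followed the same order as Plk1, and it rose 4.21-fold in KO and 6.37-fold in WT. The cyclin gene with the highest signal, Ccnb2, a B-type partner of Cdk1, read 9.16 and 9.51 in IL-4c KO, 7.98 and 9.5 in IL-4c LysM, and 9.97 and 9.89 in IL-4c WT, with 7.10, 7.25 and 7.80 in naive KO and 7.73, 7.55 and 7.73 in naive WT. It rose by 1.95 ± 0.30 in KO and by 2.26 ± 0.30 in WT. All 11 measured members of this group were called higher in WT and 10 in KO, where Cdc25b, a phosphatase that activates Cdk1, was the exception (0.35 ± 0.15, limma adjusted p = 0.078).

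In the spindle checkpoint group, which delays anaphase until chromosomes are attached, all 4 members rose in both genotypes. Among them, the call of Ttk follows from the filter. Bub1, a checkpoint kinase at the kinetochore, read 7.0 and 6.98 in IL-4c KO, 5.64 and 6.77 in IL-4c LysM, and 7.30 and 7.78 in IL-4c WT, with 4.34, 4.45 and 5.34 in naive KO and 4.85, 4.98 and 4.59 in naive WT. It rose by 2.28 ± 0.30 in KO and by 2.73 ± 0.30 in WT, among the largest rises of both responses. The kinetochore group, which couples chromosomes to the spindle, rose in all 10 members. Spc24, a subunit of the Ndc80 complex, read 7.58 and 7.78 in IL-4c KO, 6.68 and 7.77 in IL-4c LysM, and 8.12 and 8.65 in IL-4c WT, with 5.37, 5.59 and 5.96 in naive KO and 5.55, 5.77 and 5.40 in naive WT. It had the largest WT response of all members, 2.81 ± 0.25 (7.02-fold), and rose 4.12-fold in KO. Cenpa, the histone H3 variant that marks centromeres, had the highest mean of this group over all 16 arrays, with 7.40 and 7.43 in IL-4c KO, 6.93 and 7.73 in IL-4c LysM, and 7.98 and 8.09 in IL-4c WT, against 6.40 to 6.72 in naive KO and 6.42 to 6.57 in naive WT. The 9 kinesins, motors of the spindle and midzone, were all called higher in both genotypes, with medians of 1.30 in KO and 1.89 in WT. Kif2c, above the array median on 13 of the 16 arrays, rose by 1.59 in KO and 2.28 in WT. The remaining members among the 8 largest WT rises were Cdca3 (2.71), a trigger of mitotic entry through degradation of Wee1, Aurka (2.64), the spindle pole kinase, Aurkb (2.62), the kinase of the chromosomal passenger complex, and Prc1 (2.49), which bundles midzone microtubules. In KO the largest rise was that of Ube2c, at 2.33 ± 0.21, the ubiquitin-conjugating enzyme of the anaphase-promoting complex (APC/C); Ccna2 (2.03) and Prc1 (1.99) were also among the largest 8.

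In the chromosomal passenger complex, which corrects faulty attachments and then moves to the midzone, all 4 members rose in WT and 3 in KO. Birc5, its survivin subunit, read 8.44 and 8.55 in IL-4c KO, 7.51 and 8.36 in IL-4c LysM, and 8.89 and 9.13 in IL-4c WT, with 6.25, 6.73 and 7.28 in naive KO and 6.66, 6.77 and 6.65 in naive WT. It rose by 1.74 ± 0.25 in KO and 2.32 ± 0.25 in WT, and each IL-4c array lay above each naive array. Cdc20, the APC/C activator whose promoter is printed above, read 6.98 and 7.05 in IL-4c KO, 6.39 and 7.50 in IL-4c LysM, and 7.81 and 7.90 in IL-4c WT, with 5.54, 5.35 and 5.78 in naive KO and 5.45, 5.73 and 5.33 in naive WT. It too separated IL-4c from naive arrays without overlap, and it rose by 1.46 ± 0.24 in KO and 2.35 ± 0.24 in WT. All 5 spindle and cytokinesis genes rose in both genotypes, among them Anln, which read 7.78 and 7.79 in IL-4c KO, 7.11 and 8.0 in IL-4c LysM, and 8.33 and 8.41 in IL-4c WT, with 5.55, 5.38 and 6.68 in naive KO and 5.71, 6.27 and 6.02 in naive WT.

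In the chromosome group, Mki67, the Ki-67 proliferation antigen that coats mitotic chromosomes, read 7.88 and 8.23 in IL-4c KO, 6.95 and 7.78 in IL-4c LysM, and 8.43 and 8.71 in IL-4c WT, with 6.48, 6.27 and 7.41 in naive KO and 6.83, 6.84 and 6.74 in naive WT. LysM replicate 1 of Mki67 therefore lay below naive KO replicate 3. It rose by 1.34 ± 0.27 in KO and 1.77 ± 0.27 in WT. Top2a, the topoisomerase that disentangles sister chromatids, read 8.13 and 8.30 in IL-4c KO, 7.60 and 8.19 in IL-4c LysM, and 8.86 and 9.05 in IL-4c WT, with 6.28, 6.46 and 7.45 in naive KO and 7.15, 7.16 and 7.0 in naive WT. Top2a rose by 1.49 ± 0.26 in KO and 1.85 ± 0.26 in WT. These values are from the brighter of 2 probe sets of Top2a. Smc4, the core ATPase of condensin together with Smc2, was the exception of this group. Its signal was already high in naive cells, at 8.23, 8.20 and 8.70 in KO and 8.61, 8.67 and 8.41 in WT, and its change with IL-4c was 0.05 ± 0.17 in KO (limma adjusted p = 0.84) and 0.27 ± 0.17 in WT (limma adjusted p = 0.20). Its partner Smc2 rose by 1.34 ± 0.30 in KO and 2.12 ± 0.30 in WT.

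Pttg1 and Espl1, which encode securin and the protease separase that securin holds inactive until anaphase, parted from each other. Pttg1 read 8.05 and 8.15 in IL-4c KO and 8.08 and 7.90 in IL-4c WT, with 8.35, 8.56 and 8.41 in naive KO and 8.22, 8.35 and 8.40 in naive WT, so both genotypes were lower after IL-4c without overlap. It fell by 0.34 on the log2 scale in KO and by 0.33 in WT (limma adjusted p = 0.032 for each). The call was lost in KO without naive KO replicate 2 or either IL-4c KO array (adjusted p up to 0.18), and in WT without naive WT replicate 2 or 3 or IL-4c WT replicate 2 (adjusted p up to 0.25). It was also lost with the replicate number as a block (adjusted p = 0.068 in KO and 0.069 in WT), in KO with centring (0.071) or only the compared arrays (0.10), and in WT with a second quantile normalization (0.053). Espl1 rose by 0.82 ± 0.18 in KO and 0.99 ± 0.18 in WT. Incenp, the scaffold of the chromosomal passenger complex, rose by 1.18 ± 0.18 in WT, and its difference in KO was 0.34 ± 0.18 (limma adjusted p = 0.16). The 3 smallest differences in WT were those of Smc4, Pttg1 and Cdc25b (0.72), and in KO those of Smc4, Incenp and Pttg1.

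**Figure D2:**
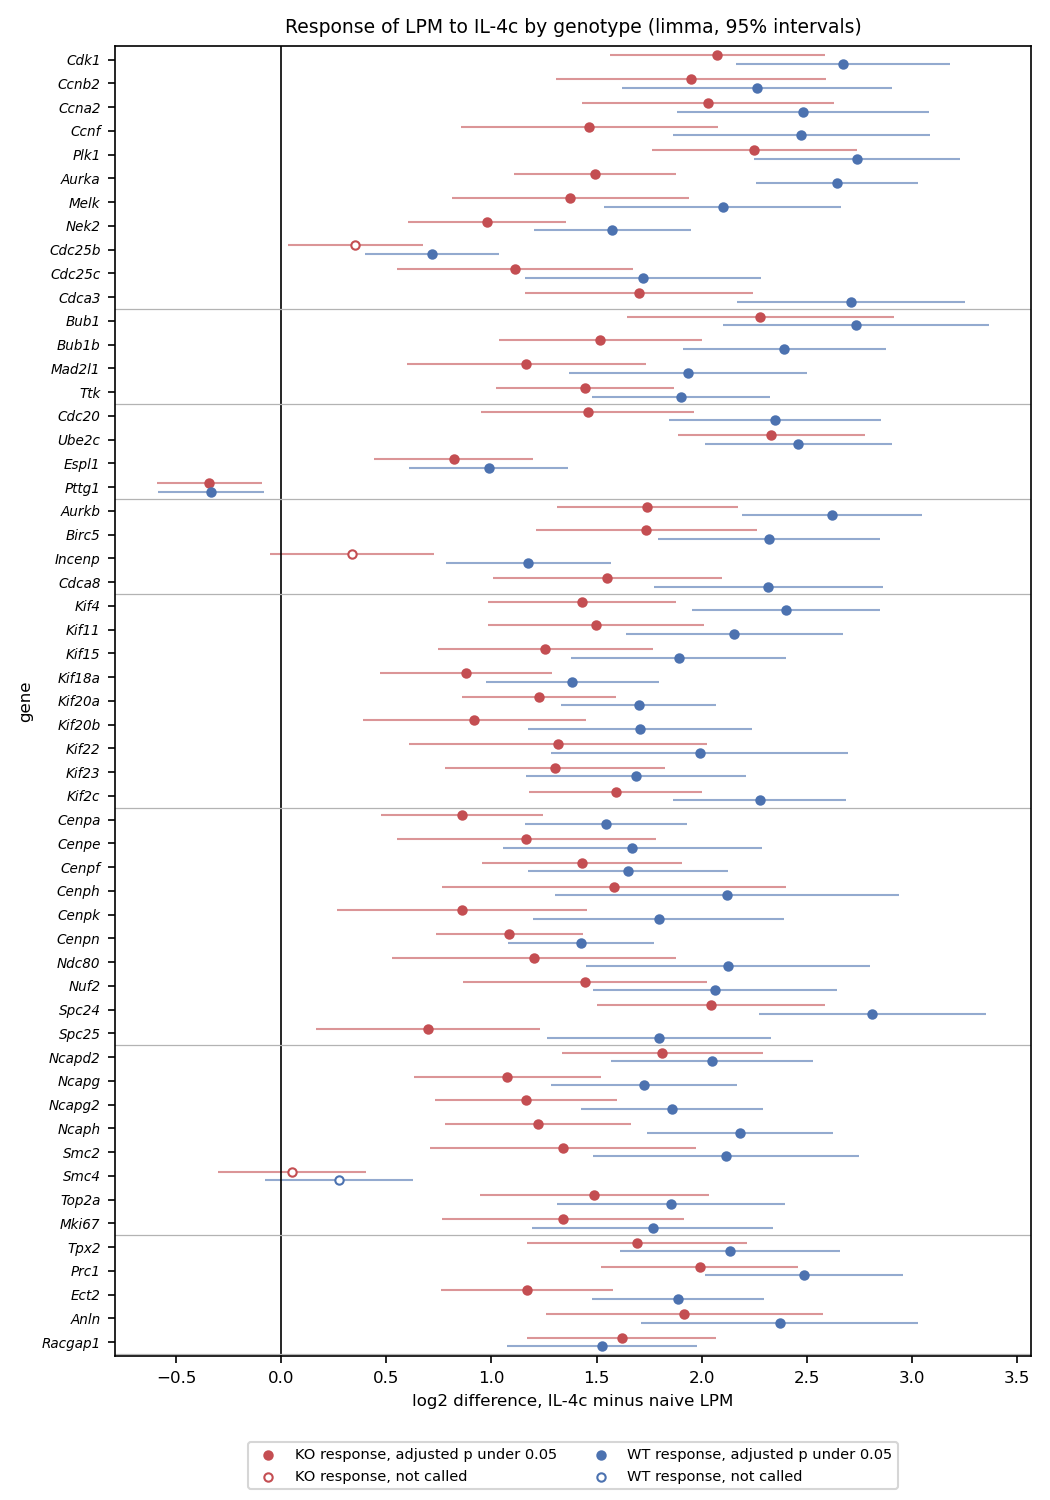
Log2 difference between IL-4c and naive LPM (horizontal axis) of each member (vertical axis, by role) in KO and WT, with 95% intervals; filled points are called. Both genotypes lie well to the right of 0 for nearly all members, while Pttg1 lies below 0 and Smc4 near it.

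The next question was whether these genes reached the same level after IL-4c without Bhlhe40. In KO LPM 54 of the 55 members lay below WT, with a median of -0.65 on the log2 scale, against -0.02 over all tested genes. For 53 of the 55 both KO arrays lay below both WT arrays, where 24.8% of tested genes did so. Since the members shift together between arrays, such counts, here and in the comparisons that follow, can reflect a shared shift between few arrays. Of the 55, 5 fell by the test and 0 rose, where 3.63% of tested genes were called, 1.5% lower and 2.12% higher. The 5 were Aurka, Ncaph, Kif2c, Kif4 and Ect2, spread over 4 roles.

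Aurka (chromosome 2, 172356190 to 172370886) read 7.29 and 7.21 in IL-4c KO, against 7.99 and 8.40 in IL-4c WT. It was 1.93-fold lower in KO (-0.95 ± 0.20, limma adjusted p = 0.015). Ncaph, a non-SMC subunit of condensin I (chromosome 2, 127103809 to 127133954), read 6.86 and 6.72 in KO, against 7.47 and 7.97 in WT (-0.93 ± 0.23, limma adjusted p = 0.034). For both genes the KO arrays lay below the WT arrays by more than either pair's own spread. Kif2c, a kinesin that depolymerises microtubules at centromeres (chromosome 4, 117159633 to 117182624), read 6.23 and 6.41 in KO, against 6.98 and 7.47 in WT (-0.90 ± 0.21, limma adjusted p = 0.027). Kif4, a chromosome-bound kinesin that works with condensin and Prc1 (chromosome X, 100626065 to 100727271), read 5.72 and 5.89 in KO, against 6.44 and 6.94 in WT (-0.88 ± 0.23, limma adjusted p = 0.046). These kinesin groups did not overlap either. Ect2, the exchange factor that activates RhoA for the cleavage furrow (chromosome 3, 27097222 to 27154253), read 5.78 and 5.82 in KO, against 6.57 and 6.77 in WT (-0.87 ± 0.21, limma adjusted p = 0.033).

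The members with the largest differences were not all among the 5 called. Ccnf, the F-box protein cyclin F, was at -1.06 ± 0.31 (limma adjusted p = 0.078) and Ndc80, the kinetochore's microtubule-binding subunit, at -1.02 ± 0.35 (limma adjusted p = 0.13). Plk1 was at -0.72 ± 0.25 and Cdk1 at -0.61 ± 0.26, with 95% intervals that leave out 0, but adjusted p was 0.14 and 0.25. At an unadjusted p under 0.05 there were 42 of the 55 members and 16.9% of tested genes. The role medians were -0.82 for the 9 kinesins, -0.72 for the 11 kinases and cyclins, -0.71 for the 10 kinetochore genes, -0.65 for the 4 checkpoint genes, -0.65 for the 8 condensin and chromosome genes, -0.64 for the 4 passenger genes, -0.58 for the 5 spindle and cytokinesis genes and -0.33 for the 4 anaphase genes. Pttg1 was the member above WT (0.11 ± 0.13). The calls rest on few arrays: without either KO array or without WT replicate 2, 0 of the 5 were called, with medians of -0.56 to -0.68 and 54 of 55 members still below WT. All 5 calls were also lost when the variance was taken from the 4 compared arrays alone. That of Kif4 was lost with a second quantile normalization, centring, no dim filter or array weights (limma adjusted p of 0.0504 to 0.0593). Centring also lost the call of Ncaph.

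In LysM LPM 54 of the 55 members also lay below WT, with a median of -1.01 against -0.01 over all tested genes. Of the 55, 40 fell by the test and 0 rose, where 8.67% of tested genes were called, 3.87% lower and 4.8% higher. Both LysM arrays lay below both WT arrays for 52 of the 55, where 25.4% of tested genes did so; Cdc25c, Espl1 and Pttg1 were the exceptions. This comparison uses the same WT arrays as that of KO, so the 2 are not independent. Bub1, with the values given above, was 2.53-fold lower in LysM (-1.34 ± 0.33, limma adjusted p = 0.018). Melk, a kinase of dividing cells, read 4.74 and 6.08 in LysM, against 6.54 and 6.81 in WT (-1.27 ± 0.29). Kif15, a spindle kinesin, read 5.86 and 6.30 in LysM, against 7.23 and 7.41 in WT (-1.24 ± 0.26). In each of these genes LysM replicate 1 was the lowest array of the IL-4c set. Kif20b, which acts in the completion of cytokinesis, read 4.83 and 5.91 in LysM, against 6.53 and 6.66 in WT (-1.22 ± 0.27). Mki67 was 2.31-fold lower (-1.21 ± 0.30) and Mad2l1, the Mad2 checkpoint protein, read 6.65 and 7.38 in LysM, against 8.26 and 8.19 in WT (-1.21 ± 0.29). Cenpk, a constitutive centromere protein, was at -1.20 ± 0.31 and Ccnb2 at -1.19 ± 0.33. All 8 condensin and chromosome genes and all 4 checkpoint genes were among the 40, as were 7 of 11 kinases and cyclins, 7 of 10 kinetochore genes, 6 of 9 kinesins, 3 of 4 passenger genes, 3 of 5 spindle and cytokinesis genes and 2 of 4 anaphase genes.

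The LysM result leaned on replicate 1. Without it the calls were lost, 53 of 55 lay below WT and the median was -0.61. Without LysM replicate 2 the median was -1.36. Without WT replicate 2 it was -0.82, with nearly all calls lost, and without WT replicate 1 it was -1.14, with fewer calls. When the variance was taken from the 4 compared arrays alone, 1 member was called. The share of all tested genes called in these fits is not given, so the loss of calls is not read as particular to the members. LysM replicate 1 still lay above the highest naive WT array in 49 of the 55 members, by a median of 0.44. Of all tested genes 41.2% did so, with a median of -0.10. LysM replicate 2 did so in 53 members, by a median of 1.30, and in 42.5% of tested genes, with a median of -0.09.

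**Figure D3:**
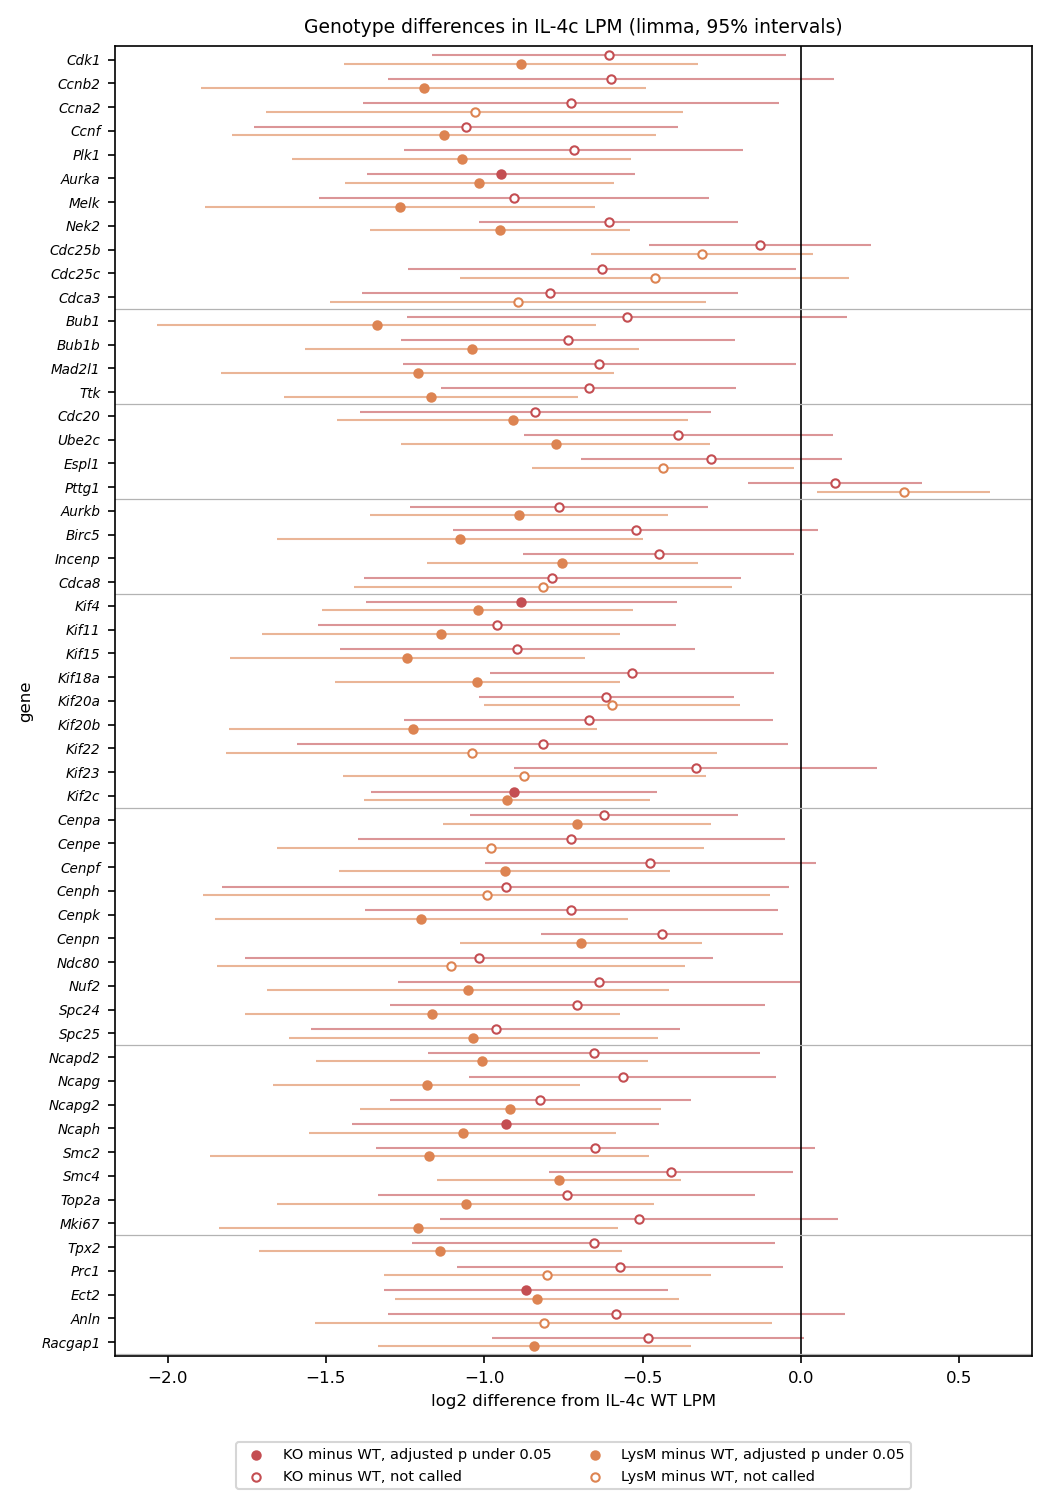
Log2 difference from IL-4c WT LPM (horizontal axis) of each member (vertical axis, by role) in KO and LysM, with 95% intervals; filled points are called, 5 in KO and 40 in LysM. All members but Pttg1 lie below 0 in both.

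Set directly against each other, KO and LysM differed in no member by limma's test. Of the 55, 0 were called, where 0.0172% of tested genes were (2 genes). An unadjusted p under 0.05 was found for 5 of the 55, and for 8.8% of tested genes. The members lay above LysM in KO for 51 of 55, where 48.7% of tested genes did. Their median was 0.30, against -0.01 over all tested genes, and it was -0.04 without LysM replicate 1. LysM replicate 2 exceeded the higher KO array in 24 of the 55, with a median difference of -0.02. Of all tested genes 34.7% did so, with a median of -0.09. Without LysM replicate 2, 3 members were called higher in KO, Ccnb2, Kif20b and Melk.

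The difference between the KO and the WT response to IL-4c was also tested, as the interaction of genotype and treatment; it shares its arrays with the comparisons above. The KO response minus the WT response was below 0 for 54 of 55 members, with a median of -0.61 against 0.03 over all tested genes. For Pttg1, which fell in both genotypes, it was -0.008, a fall of nearly the same size. Limma called 0 members, where 0.55% of tested genes were. At an unadjusted p under 0.05 there were 19 of the 55, and 13.1% of tested genes. Aurka was nearest, at -1.15 ± 0.26 (limma adjusted p = 0.059, and 0.039 to 0.24 over the alternatives), followed by Spc25 at -1.10 ± 0.35 and Cdca3 and Ccnf at -1.01. Racgap1, the GTPase-activating subunit of centralspindlin, was the member above 0, at 0.09 ± 0.30. Without naive KO replicate 3 the median was -0.35, with 51 of 55 below 0.

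Without IL-4c, no member passed limma's test between KO and WT. In naive LPM 0 of the 55 were called, where 1.88% of tested genes were. An unadjusted p under 0.05 was found for 2 of the 55, and for 15.1% of tested genes. The median was -0.07, with 20 members above 0 and 35 below. Without KO replicate 3 the median was -0.29, 50 of 55 lay below WT and 3 were called lower: Cenph (-0.98), a kinetochore protein, Racgap1 (-0.79) and Top2a (-0.73). Racgap1 read 5.42, 5.57 and 6.14 in naive KO, against 6.06, 6.44 and 6.36 in naive WT, so replicate 3 overlapped WT. Cenph read 4.33, 3.68 and 5.75 in naive KO, against 4.88, 4.97 and 5.09 in naive WT. For Cenph the WT arrays thus lay between the KO arrays. In AM 0 of the 55 were called, where 0.12% of tested genes were. An unadjusted p under 0.05 was found for 1 of the 55, and for 5.3% of tested genes. Of the 55, 8 lay higher in KO AM without overlap, where 24.0% of tested genes did, and 12 lower, where 12.4% did. The member with the unadjusted call was Espl1, which read 3.85 and 4.15 in KO AM, against 4.8 and 4.41 in WT AM. The AM median was -0.03, and it was 0.02 when arrays were centred on their medians.

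**Figure D4:**
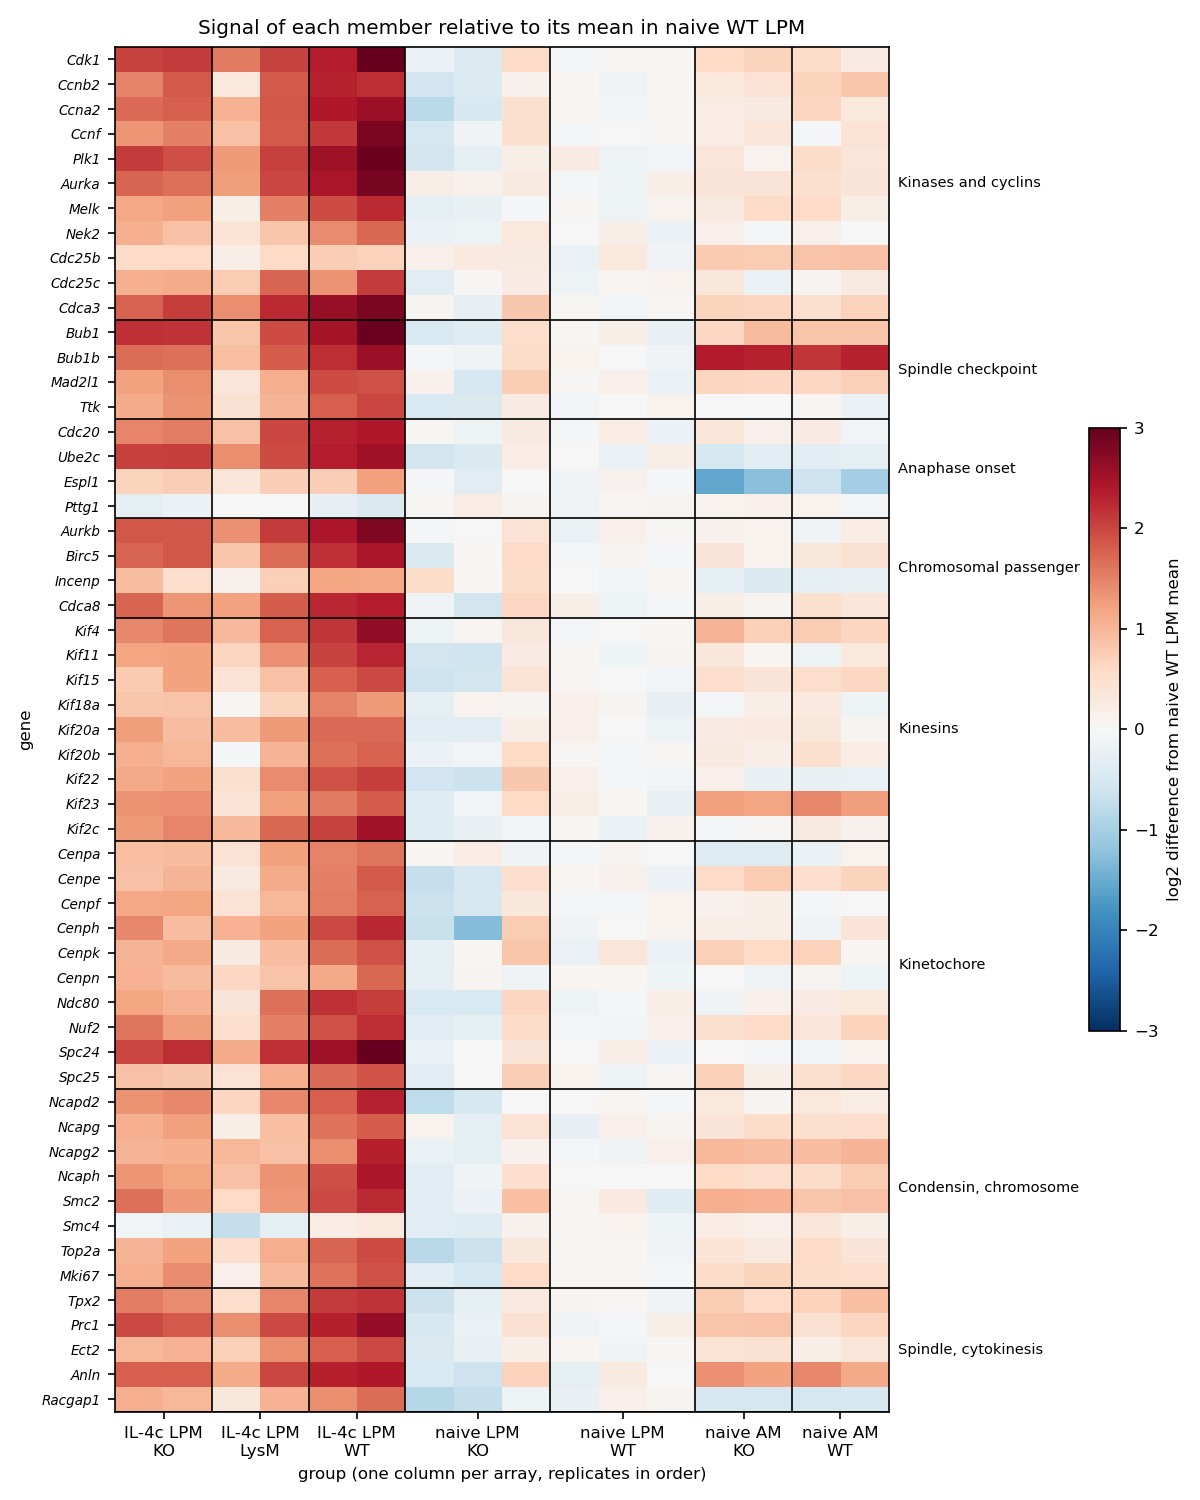
Log2 signal of each member (rows, by role) on each array (columns, by group) minus the member's mean in naive WT LPM; red is higher and blue lower. The IL-4c arrays are red in nearly all rows, LysM replicate 1 is paler than LysM replicate 2, and Bub1b stands out in AM.

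The resting macrophages of the 2 tissues differed in some of these genes. With all arrays, the members were called no more often than tested genes at large. The shares were 20.0% against 38.3% in WT and 32.7% against 40.0% in KO. In WT, 10 of the 55 were lower in LPM than in AM and 1 was higher, with a median of -0.38, against 0.02 over all tested genes. Of all tested genes 38.3% were called, 17.1% lower and 21.2% higher. In KO, 16 were lower and 2 higher, with a median of -0.43, against -0.01 over all tested genes; 40.0% of tested genes were called, 22.8% lower and 17.3% higher. Without naive KO replicate 3 the KO calls were 32 lower and 2 higher, and without naive KO replicate 1 or 2 they were 8 lower and 2 higher. Fewer members were also called in KO without either KO AM array, and in WT without either WT AM array. The share of all tested genes called in these fits is not given. The comparison with tested genes at large therefore holds for the fit of all arrays only. A difference between LPM and AM cannot be told apart from the preparation, since LPM came from lavage and AM from digested lung.

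Bub1b, which encodes the checkpoint protein BubR1 (chromosome 2, 118598202 to 118641592), differed most between the tissues. It read 5.28, 5.22 and 5.87 in naive KO LPM, against 7.70 and 7.64 in KO AM, and 5.43, 5.32 and 5.21 in naive WT LPM, against 7.47 and 7.62 in WT AM. The difference was -2.21 ± 0.23 in KO (limma adjusted p = 6.3e-07) and -2.23 ± 0.23 in WT (4.68-fold, limma adjusted p = 5.9e-07). Its AM level was close to that of IL-4c WT LPM, at 7.54 and 7.89. The AM level of its neighbours in the checkpoint group did not share this. Bub1 read 5.44 and 5.76 in KO AM and 5.64 and 5.65 in WT AM, below all IL-4c KO and WT arrays, and Ttk, the Mps1 kinase, differed by -0.20 ± 0.20 in KO and 0.06 ± 0.20 in WT. Kif23, the centralspindlin kinesin, was also higher in AM, with 5.72, 6.00 and 6.68 in naive KO LPM against 7.30 and 7.26 in KO AM, and 6.25, 6.13 and 5.86 in naive WT LPM against 7.52 and 7.33 in WT AM. It differed by -1.15 ± 0.25 in KO and -1.35 ± 0.25 in WT. Anln, the anillin scaffold of the cleavage furrow, differed by -1.42 ± 0.31 in KO and -1.29 ± 0.31 in WT. Neither gene overlapped between the tissues in either genotype. The others called lower in WT LPM among the largest 8 were Ncapg2 (-0.97), of condensin II, Cdc25b (-0.87), Smc2 (-0.85), Bub1 (-0.84) and Tpx2 (-0.80), a spindle assembly factor that activates Aurka. Racgap1, the partner of Kif23 in centralspindlin, was at -0.07 ± 0.21 in KO and 0.50 ± 0.21 in WT, without a call. Espl1 was the member called higher in LPM in both genotypes, by 1.30 ± 0.18 in KO and 0.82 ± 0.18 in WT, and Incenp was called higher in KO (0.76 ± 0.18). The smallest differences were those of Aurkb, Pttg1 and Cenpn in KO and of Cenpf, Spc24 and Pttg1 in WT, all within 0.02 of 0.

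**Figure D5:**
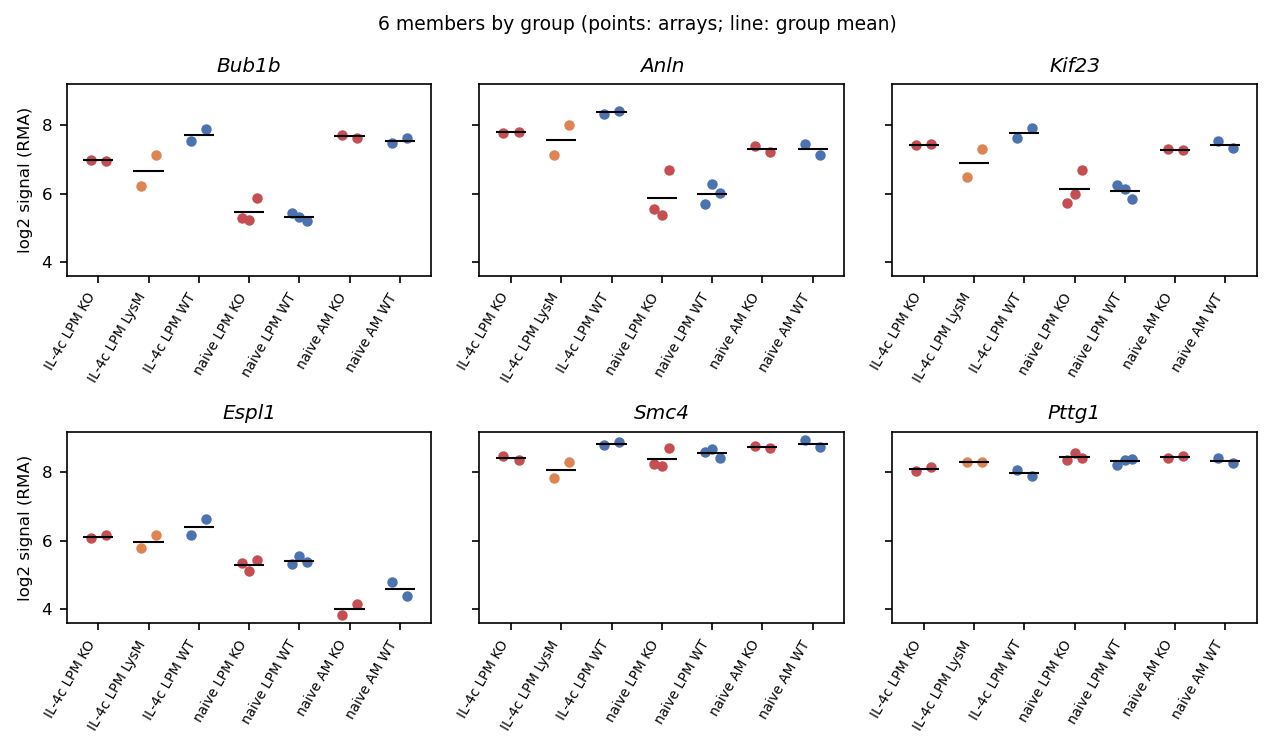
Log2 signal (vertical axis) of 6 members on each array by group; lines are group means. Bub1b, Anln and Kif23 are higher in AM than in naive LPM, and Anln in AM is below its level in IL-4c KO and WT LPM. Espl1 is lowest in AM. Over all arrays Pttg1 runs from 7.90 to 8.56 and Smc4 from 7.85 to 8.93.

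Other genes of the same pathways, from lists of related genes, gave the following counts. Of all tested genes, 21.9% rose with IL-4c in KO and 22.0% in WT, and 1.5% were lower in KO and 3.87% in LysM than in IL-4c WT. Of 61 tested mitotic genes that are not members, 52 rose with IL-4c in KO and 57 in WT, and in IL-4c LPM 6 were lower in KO and 29 in LysM than in WT. Pbk, a mitotic kinase, had the largest difference of the called genes in each of these comparisons (1.84 in KO and 2.76 in WT with IL-4c; -1.10 in KO and -1.47 in LysM against WT); the other 5 lower in KO were Cdca5, Fbxo5, Cenpw, Ncapd3 and Pkmyt1. Of 38 DNA replication genes, 33 rose with IL-4c in KO and 38 in WT, and 8 were lower in KO and 22 in LysM than in IL-4c WT. Rrm2, a subunit of ribonucleotide reductase, was largest there, at -1.37 in both. Without WT replicate 2, which both comparisons share, the mitotic genes called became 0 in KO and 2 in LysM and the replication genes 1 in KO and 3 in LysM; without LysM replicate 1 those of LysM became 2 and 4. The 15 subunits and activators of the APC/C, which marks cyclin B and securin for destruction, had medians of -0.15 in KO and -0.20 in LysM against IL-4c WT, and in each IL-4c response 6 rose and 1 fell, a share of 46.7% called where 37.3% of all tested genes were called in KO and 41.2% in WT. Fzr1 (0.71 in KO and 1.11 in WT) and Anapc15 (0.79 in KO and 1.08 in WT) moved most. Of 18 genes for E2F, pocket, MuvB, B-Myb and FoxM1 proteins, 9 rose and 1 fell with IL-4c in KO, and 12 rose and 1 fell in WT. Foxm1 rose by 1.94 ± 0.24 in KO and 2.30 ± 0.24 in WT. Within IL-4c LPM, E2f2 (-1.13), E2f8 (-1.07), Foxm1 (-1.0) and E2f7 (-0.86) were lower in KO than in WT, and Foxm1 (-1.08), E2f8 (-1.04) and E2f7 (-0.76) in LysM. E2f7, a repressor E2F, was called in the interaction (-1.20 ± 0.22, limma adjusted p = 0.022), and so was Orc1, of the origin recognition complex (-1.13 ± 0.20, limma adjusted p = 0.013). Without IL-4c WT replicate 2 their adjusted p was 0.13 and 0.072, and without IL-4c KO replicate 1 it was 0.12 and 0.068. The calls of E2f2, E2f8, Foxm1 and E2f7 against WT were also lost without WT replicate 2, and the 3 in LysM without LysM replicate 1.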

How the data were processed

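The authors deposited log2 values for 30177 probe sets on each of 16 arrays, summarised by RMA according to the submitters' processing notes; software version and genome build were not stated. Because RMA gives all arrays nearly one distribution, a shift of the whole RNA content of a cell cannot be seen. Values ran from 1.04 to 13.84, and arrays have no read depth.

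Probe sets were named from the platform annotation: 21789 named 1 gene, 1621 several and 6767 none here. Probe sets of several genes or of none were left out, among them 2 probe sets shared by Top2a and Hibadh. For 999 genes with several probe sets the brightest was used; the second of Top2a stayed dim. Genes brighter than the median of an array on 2 or more arrays were tested (11634, against 8304 that were not), and all 55 members were; 31 exceeded it on all arrays, the other 24 on fewer. Positions are those of GRCm38.p6.

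Group means of all 16 arrays were fitted with limma 3.58.1 (lmFit, eBayes) in R 4.3.3, with 9 residual and 6.61 prior degrees of freedom. "Called" means a Benjamini-Hochberg adjusted p under 0.05 over all 11634 genes of 1 of 10 comparisons. ± is the standard error. The fit was also run on simulated data in which genes varied independently. That run does not cover shifts that genes share between arrays, as the members did here. The alternatives were a second quantile normalization, centring on array medians, no dim filter, averaged probe sets, robust variance with an intensity trend, a replicate block, array weights, only the compared arrays, and leaving out each array. Leaving out 1 of 2 arrays leaves a lone array that is assumed to vary like the other groups.

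The members, their roles and the other lists were chosen with earlier results of these data known. Values by array are given for Plk1, Cdk1, Mki67, Top2a, the member with the highest signal in some roles, and the largest called differences of each comparison. Plots used matplotlib 3.10.9 under Python 3.11.15.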

Additional observations from a re-analysis of the deposited data

Results flagged for a closer look

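For 7 members the KO minus WT difference ran in opposite directions in AM and in IL-4c LPM, with both arrays of each KO group on 1 side of both WT arrays. None was called in AM, and for each of the 7 the difference between the settings was not tested. Cdk1 was at 0.22 on the log2 scale in AM and -0.61 in IL-4c LPM, and Prc1 at 0.29 and -0.57. Smc2 was at 0.21 in AM and -0.65 in IL-4c LPM, Cenpf at 0.16 and -0.48, and Ect2 at 0.15 and -0.87. Bub1b was at 0.13 in AM and -0.74 in IL-4c LPM, and Mki67 at 0.07 and -0.51. In AM, KO arrays lay above WT arrays without overlap in 8 of the 55 members, a smaller share than the 24.0% of tested genes. In IL-4c LPM, KO arrays lay below WT arrays without overlap in 24.8% of tested genes. The share of tested genes with both was not counted, so the pattern is not read as a trait of these members.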

How the results depend on the processing

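No member that was called changed direction under any alternative. Against IL-4c WT, the 5 members called in KO became 3 with centring, 3 with only the compared arrays (Kif11, Ndc80 and Spc25, none of the 5), 8 with the replicate block and 0 to 5 without 1 array. The 40 called in LysM became 1 with only the compared arrays and 0 to 50 without 1 array. KO against LysM gave 0 to 3 without 1 array. Naive KO against WT LPM gave 1 (Racgap1) with array weights and 0 to 3 without 1 array; the share of all called genes that were higher moved from 28.3% to 45.6% with a second quantile normalization. AM gave 0 throughout. The IL-4c response kept 46 to 52 calls in KO and 53 to 54 in WT without 1 array. The interaction gave 1 (Aurka) with an intensity trend, with array weights or with only the compared arrays, and 0 to 2 without 1 array. LPM against AM, with 18 calls in KO, gave 34 with array weights and 7 to 34 without 1 array; with 11 calls in WT, it gave 22 with the replicate block, 29 with only the compared arrays and 7 to 11 without 1 array. For these counts, apart from the smaller number of arrays in the fits that leave arrays out, the cause was not tested. The share of all tested genes called under each alternative is not given, so a change in a count is not read as particular to the members. Replicate numbers were not taken as pairs, since the labels tie them to nothing shared: deviations of same-numbered arrays correlated across genes at 0.12 to 0.21 within the IL-4c set, where each comparison has only 2 pairs, and at -0.14 to 0.07 elsewhere. The block gave 44 calls in LysM. Signal below the array median limits 24 of the members on some arrays, where small differences would not show.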
